A study of Danio rerio with 2 samples.

Results

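The genes described here are 8 hox genes that mark position along the body axis: hoxa2b, hoxb2a, hoxa3a, hoxb3a, hoxd3a, hoxb4a, hoxd4a and hoxa13b. They were chosen by symbol, not by level, and 7 of the 8 had a row among the 35117 genes of both count tables. The symbol hoxa3a had no row, so no value is given for it. The 7 genes gave 705 UMIs (unique molecular identifiers, each counting 1 captured transcript) in the mutant library and 450 UMIs in the WT library, 0.00434% and 0.00324% of all UMIs.

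The mutant library came from juvenile zebrafish homozygous for the el802 allele of nkx3.2 (nkx3.2 el802/el802), aged 22 days post fertilization by the sample characteristics. The WT library came from wild-type fish aged 21 days by the same field, whereas the protocol text gives 21 days for both, so age and genotype cannot be told apart. Both strains carried Tg(fli1a:EGFP)y1 and Tg(sox10:DsRed)el10, and live cells positive for both reporters were sorted before capture with the 10x Genomics 3′ v2 kit. The labels do not say how many fish were pooled. With a single library for each genotype there is no replicate spread and no test, and the 95% intervals given below cover counting error only.

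Hox genes encode homeodomain transcription factors and lie in clusters whose order follows the body axis, with low-numbered paralogs expressed nearer the head. Neural crest of the mandibular arch and the frontonasal region lacks hox expression. In zebrafish hoxa2b and hoxb2a specify the hyoid arch, hox3 and hox4 paralogs mark the more posterior pharyngeal arches, and hox9 to hox13 paralogs pattern the fins and trunk, with hox13 genes acting in the distal fin. Skeletal cells of the adult can keep such expression from the embryo.

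Total depth was 16349558 UMIs over 2005 mutant barcodes (median 7005) and 13927936 UMIs over 2057 WT barcodes (median 5781). After removal of 9 and 3 called doublets and 0 and 3 globin-rich cells, 1996 mutant and 2051 WT cells were used, and 4 barcode sequences occurred in both libraries. Of the 12 chondrocyte markers listed, 11 had a row, and all 11 were detected in both libraries. A total of 1486 mutant cells (74.4%) and 1616 WT cells (78.8%) passed a chondrocyte gate of 5000 CPM (UMIs per 1000000 UMIs of the same cells) summed over those markers. The level of nkx3.2 is no check of the genotype labels, because the position of the el802 lesion relative to the 3′ tags is not given in the sources used here.

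Of 48 hox symbols in the tables, 37 had at least 1 UMI in either library and 20 had a UMI in at least 10 cells. The 20 comprised 6 of the 7 genes with a row and 14 other hox genes; hoxb4a, with 4 mutant and 2 WT UMIs, was not measurable. At least 1 UMI of a member was found in 441 mutant cells (22.1%, interval 20.3 to 24.0%) and 301 WT cells (14.7%, 13.2 to 16.3%). After each cell was thinned to 3000 UMIs, which left out 173 mutant and 254 WT cells, the shares were 11.7% (10.3 to 13.3%) and 8.96% (7.68 to 10.4%). The share thus depended on depth in both libraries, and a cell without a hox UMI is not shown to lack the transcript. Most detections were single molecules: 149 of the 194 mutant cells and 65 of the 74 WT cells positive for hoxa2b held 1 UMI of it.

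**Figure D1:**
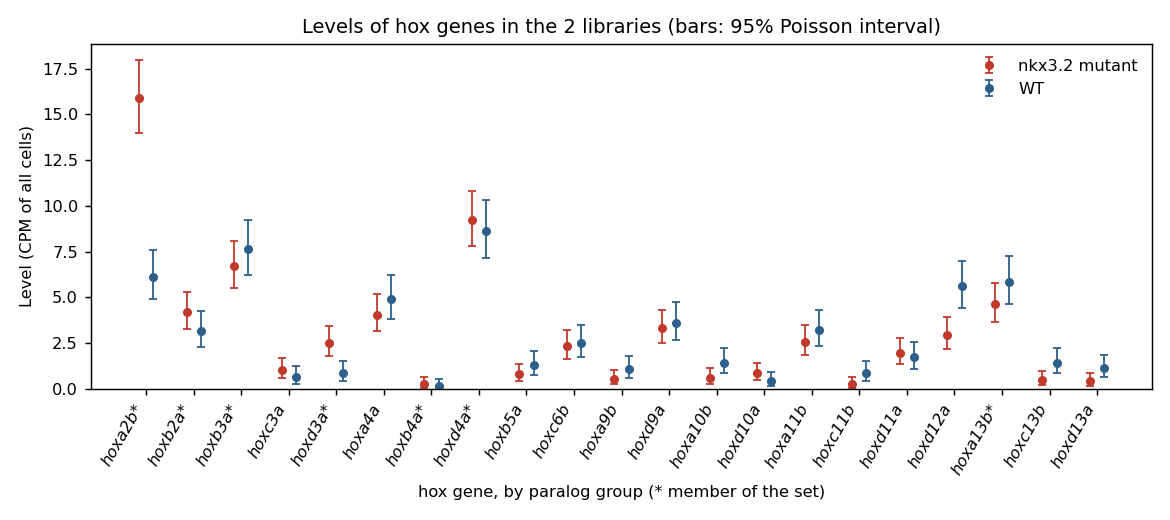
Level in CPM over all cells (y axis) of the 7 members with a row (asterisks) and the 14 other hox genes found in at least 10 cells (x axis, ordered by paralog group), in the nkx3.2 mutant library (red, left) and the WT library (blue, right), with 95% Poisson intervals. hoxa2b stands apart at 15.9 CPM in the mutant library and 6.13 CPM in the WT library, while hoxd4a lies at 9.24 and 8.65 CPM.

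The paralog group 2 genes, hoxa2b and hoxb2a, are the hyoid arch selectors. hoxa2b had 258 UMIs in 194 mutant cells, 15.9 CPM (14.0 to 18.0), against 85 UMIs in 74 WT cells, 6.13 CPM (4.89 to 7.57), a ratio of 2.59 (2.02 to 3.36). hoxb2a had 68 UMIs in 63 mutant cells, 4.19 CPM, against 44 UMIs in 40 WT cells, 3.17 CPM, a ratio of 1.32 (0.891 to 1.98). The intervals of the libraries did not overlap for hoxa2b and overlapped for hoxb2a.

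Among the hox3 and hox4 genes, hoxb3a had 109 UMIs in 91 mutant cells, 6.71 CPM, against 106 UMIs in 80 WT cells, 7.64 CPM, a ratio of 0.879 (0.667 to 1.16). hoxd4a had 150 UMIs in 99 mutant cells, 9.24 CPM, against 120 UMIs in 85 WT cells, 8.65 CPM, a ratio of 1.07 (0.835 to 1.37). Neither differed beyond counting error. hoxd3a had 41 UMIs in 37 mutant cells, 2.53 CPM, against 12 UMIs in 11 WT cells, 0.865 CPM, a ratio of 2.92 (1.51 to 6.10). In the RefSeq table of assembly GRCz12tu hoxd3a overlaps hoxd4a, and hoxb3a overlaps hoxb4a, hoxb5a and hoxb6a. How reads in an overlap were counted is not given in the sources used here, so the split within each pair, and the hoxd3a ratio with it, is uncertain. Summed over hoxb3a, hoxd3a, hoxb4a and hoxd4a, the level was 18.7 CPM in the mutant library and 17.3 CPM in the WT library, a ratio of 1.08 (0.911 to 1.29).

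hoxa13b, a distal fin gene, had 75 UMIs in 46 mutant cells, 4.62 CPM, against 81 UMIs in 55 WT cells, 5.84 CPM, a ratio of 0.791 (0.570 to 1.097). The 22 other hox9 to hox13 genes, called the other posterior hox genes below, had 236 mutant UMIs, 14.5 CPM, against 291 WT UMIs, 21.0 CPM, a ratio of 0.693 (0.581 to 0.826). The largest contributor in WT cells was hoxd12a, at 2.96 CPM in the mutant library against 5.62 CPM in the WT library, a ratio of 0.526 (0.359 to 0.763). The hoxa13b difference was within counting error and the summed difference of the other posterior genes was not.

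These ratios stand against a broad background. Of 11522 genes with at least 20 UMIs, 13.8% were more than 1.5-fold higher and 22.3% more than 1.5-fold lower in the mutant library, with a median log2 ratio of -0.13. Of the 19 hox genes among them, 4 were past 1.5-fold higher (hoxa2b, hoxc3a, hoxd3a and hoxd10a) and 6 past 1.5-fold lower (hoxb5a, hoxa9b, hoxa10b, hoxd12a, hoxc13b and hoxd13a). The hox genes thus lay on both sides, with a median log2 ratio of -0.19, and only hoxa2b and hoxd3a of the measurable members passed 1.5-fold.

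Few cells held several members: 76 mutant cells and 37 WT cells had UMIs of at least 2. Co-detection was set against the number of cells expected if each gene were spread over the cells in proportion to their depth alone. That number was drawn from UMIs, not from positive cells, so UMIs clumped in fewer cells than depth gives raise it. The 304 mutant UMIs of the hox3 and hox4 genes lay in 181 cells. Counts below the expected number can therefore overstate separation, by an amount not measured, and counts near it do not show that genes were unlinked. hoxb3a and hoxd4a were found together in 26 mutant cells, where depth gave 9.82, and in 19 WT cells, where it gave 7.45. hoxd3a and hoxd4a were found together in 19 mutant cells against 3.798 expected and in 4 WT cells against 0.875, with the overlap of these genes named above. hoxb2a went with the hox3 and hox4 genes, in 25 mutant cells against 11.9 expected and in 12 WT cells against 6.05.

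hoxa2b kept largely apart from them in the mutant library, with 9 cells holding hoxa2b and a hox3 or hox4 gene where depth gave 41.8. In the WT library 8 cells held both against 11.5 expected, and the interval of that count (3.45 to 15.8) includes the expected number. hoxd4a, the most often detected of them, met hoxa2b in 2 mutant cells against 21.9 expected and in 6 WT cells against 6.02. hoxa2b and its paralog hoxb2a met in 10 mutant cells, where depth gave 10.3, and in 0 WT cells, where it gave 2.28. The separation of hoxa2b from the hox3 and hox4 genes was therefore measured in the mutant library only, where hoxa2b was also more often detected, and whether the libraries differ in it was not tested.

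hoxa13b was separate from both sets. It met a hox3 or hox4 gene in 1 mutant cell against 13.1 expected and in 1 WT cell against 10.98, and it met hoxa2b in 0 mutant cells against 11.3 and 1 WT cell against 4.13. Its partners were the other posterior genes, present in 36 of its 46 mutant cells (10.4 expected) and in 32 of its 55 WT cells (13.1 expected). hoxa11b, hoxd9a and hoxd12a were each found with it in 11 to 16 cells per library. hoxa2b met the other posterior genes in 1 mutant cell against 33.3 expected and in 1 WT cell against 13.7. hoxa2b and hoxa13b belong to the same hoxa cluster in the GRCz12tu table, with hoxa9b, hoxa10b and hoxa11b between them, so genes of a single cluster were found in different cells.

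**Figure D2:**
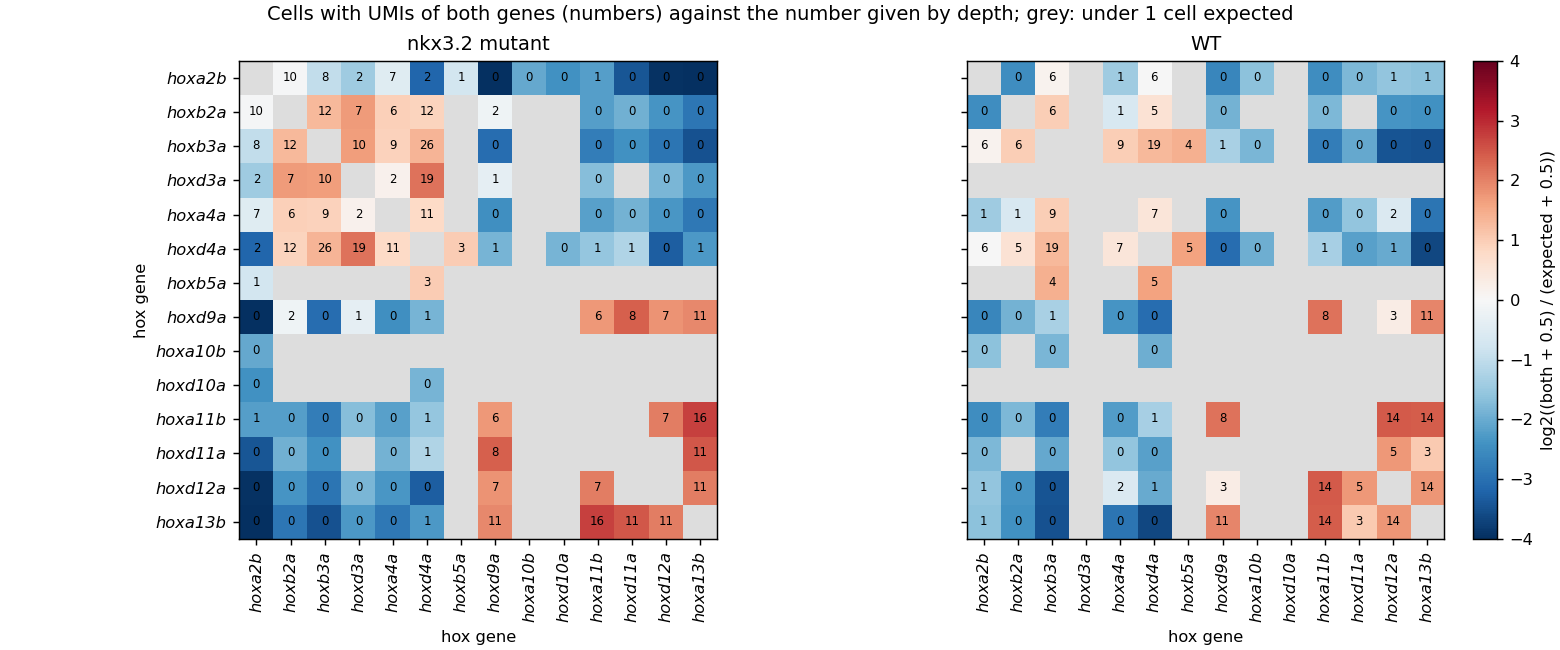
Cells with UMIs of both hox genes of a pair (numbers) in the nkx3.2 mutant library (left) and the WT library (right); both axes list 14 hox genes by paralog group, colour gives log2 of the observed over the depth-expected number with 0.5 added to each, and grey marks pairs with under 1 cell expected. Red blocks join hoxb2a with the hox3 and hox4 genes and join hoxa13b with hoxd9a, hoxa11b, hoxd11a and hoxd12a, and blue marks most squares between the blocks.

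The cells were then grouped by marker genes without reference to hox genes, in a fixed order of gates. A cell went to the first gate it met, in the order ifitm5/bglapl, mmp13b, ccl25b/cxcl12a, fn1b/tgm2l, f13a1b/mgp, col10a1a, ptgdsb.1, matn1-high and col5a1/postnb. The minimum was 1000 CPM, except 2000 for fn1b/tgm2l and ptgdsb.1, 4000 for matn1 and 300 for col5a1/postnb. The matn1-high gate thus held only cells that earlier gates, f13a1b/mgp and ptgdsb.1 among them, had not taken. The gates were fn1b/tgm2l (160 mutant and 267 WT cells), f13a1b/mgp (131 and 104), ptgdsb.1 (260 and 183), ccl25b/cxcl12a (86 and 81), col10a1a without mmp13b (46 and 86), mmp13b (40 and 79), matn1-high (814 and 845) and col5a1/postnb (127 and 212). Small numbers of cells were gated by ifitm5/bglapl (12 and 28), and 320 mutant and 166 WT cells met no gate. Gate levels were set after marker values were seen, and many cells lay near a minimum: 250 cells of both libraries were within 1.5-fold of that for fn1b/tgm2l, 249 of that for f13a1b/mgp, 213 of that for ptgdsb.1 and 699 of that for matn1. At least 1 member was detected in 47.3% of mutant and 46.2% of WT f13a1b/mgp cells, and in 7.09% of mutant and 9.91% of WT col5a1/postnb cells, so gates differed widely in hox content.

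hoxa13b belonged mainly to the fn1b/tgm2l gate, named for fibronectin 1b and a transglutaminase. That gate held 59 of 75 mutant hoxa13b UMIs (78.7%) and 56 of 81 WT UMIs (69.1%), with 8.02% of mutant and 13.02% of WT cells. Its level there was 55.5 CPM (42.3 to 71.7) in mutant cells and 36.8 CPM (27.8 to 47.8) in WT cells, and 34 mutant cells (21.2%) and 43 WT cells (16.1%) held a UMI. After thinning the shares were 11.3% of mutant and 10.0% of WT cells. In ptgdsb.1 cells no hoxa13b UMI was found in 260 mutant or 183 WT cells, which allows shares of cells with a UMI of up to 1.15% and 1.64% and does not bound the share that express the gene, at median depths of 5065 and 4939 UMIs against 6459.5 and 5076 in the fn1b/tgm2l gate. No hoxa13b UMI was found in the ccl25b/cxcl12a, col10a1a without mmp13b, col5a1/postnb, mmp13b or ifitm5/bglapl gates of either library. The matn1-high gate held a UMI in 2 of 814 mutant cells and 2 of 845 WT cells.

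The other posterior genes followed the same gate, at 148 CPM (126 to 173) in 86 mutant cells (53.8%) and 130 CPM (112 to 149) in 110 WT cells (41.2%). When the expected number was summed within each gate, the ratio of observed to expected cells with hoxa13b and another posterior gene was 1.09 in the mutant library and 1.02 in the WT library, against 3.46 and 2.45 over all cells. Posterior hox genes were therefore found mainly in the same gate, and within gates the observed number lay near the expected one. The sums cover all gates, and UMIs clumped in few cells raise the expected number. A ratio near 1 thus does not show that the genes were unlinked inside the gate. For hoxb2a with the hox3 and hox4 genes, summing within gates gave 1.42 in mutant and 1.197 in WT cells, against 2.10 and 1.98. The low counts of hoxa13b and of hoxa2b with the hox3 and hox4 genes were set against all cells. The fn1b/tgm2l gate held 7 of 304 mutant and 10 of 240 WT UMIs of the hox3 and hox4 genes. The part of gates in that separation is not given here.

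The hox3 and hox4 genes were highest in f13a1b/mgp cells, named for a coagulation factor subunit and matrix Gla protein. The summed level was 80.3 CPM (62.8 to 101) with a UMI in 38 of 131 mutant cells (29.0%), and 127 CPM (99.3 to 161) with a UMI in 36 of 104 WT cells (34.6%). In ptgdsb.1 cells, named for a prostaglandin D2 synthase, it was 67.9 CPM (55.6 to 82.0) in 64 mutant cells (24.6%) and 54.3 CPM (40.6 to 71.2) in 37 WT cells (20.2%). The ccl25b/cxcl12a cells, named for chemokines, reached 55.2 CPM (35.4 to 82.2) in the mutant library and 39.8 CPM (22.3 to 65.6) in the WT library. The cells with col10a1a but no mmp13b reached 48.4 CPM (27.6 to 78.5) in the mutant library and 28.1 CPM (16.1 to 45.7) in the WT library. Neighbours in this order overlapped in their intervals in the mutant library, whereas in the WT library the f13a1b/mgp gate lay above the others.

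The matn1-high cells lay far below, at 2.95 CPM (1.89 to 4.39) in 13 of 814 mutant cells (1.60%) and 4.50 CPM (3.10 to 6.32) in 21 of 845 WT cells (2.49%). The matn1-high cells were the deepest, with medians of 9651 UMIs in the mutant library and 8056 in the WT library, against 5994 and 4577 in f13a1b/mgp cells. In fn1b/tgm2l cells the level was 6.59 CPM in the mutant library and 6.58 CPM in the WT library. Thinned shares kept the contrast, at 18.6% of mutant and 26.1% of WT f13a1b/mgp cells against 0.878% of mutant and 1.39% of WT matn1-high cells.

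hoxa2b was the member most often found in matn1-high cells, which held 137 of its 258 mutant UMIs (53.1%) and 35 of its 85 WT UMIs (41.2%), with 40.8% of mutant and 41.2% of WT cells. These were the deepest cells, so the shares of UMIs and of cells are not on equal terms. The mutant level of hoxa2b was 34.6 CPM in f13a1b/mgp, 24.1 CPM in ptgdsb.1, 16.9 CPM in matn1-high, 15.8 CPM in col5a1/postnb and 4.71 CPM in fn1b/tgm2l cells. The WT level in the same gates was 10.9, 8.36, 4.77, 18.0 and 1.97 CPM. In ccl25b/cxcl12a cells hoxa2b had 1 mutant UMI and 4 WT UMIs. The lowest of these levels, in fn1b/tgm2l cells, came from UMIs in 1.88% of mutant and 1.12% of WT cells, against 13.6% of mutant and 3.55% of WT matn1-high cells. Per UMI, the matn1-high level of hoxa2b was 16.9 CPM against 15.9 CPM over all mutant cells, and 4.77 CPM against 6.13 CPM over all WT cells. Free RNA was not measured, and no enrichment of hoxa2b in matn1-high cells is read in either library. The col5a1/postnb cells had the highest WT level, with an interval of 10.5 to 28.9 CPM that overlaps that of f13a1b/mgp cells (4.005 to 23.8 CPM). hoxb2a was highest in f13a1b/mgp cells of both libraries, as hoxa2b was in the mutant library. It was 20.1 CPM in mutant and 16.4 CPM in WT f13a1b/mgp cells against 1.48 CPM in mutant and 1.09 CPM in WT matn1-high cells. It had 12 mutant and 12 WT UMIs in ptgdsb.1 cells, and 8 mutant and 1 WT UMIs in ccl25b/cxcl12a cells. Cells with col10a1a but no mmp13b had 1 mutant and 3 WT UMIs of hoxb2a, so it followed the hox3 and hox4 gates only in part.

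The cells gated by mmp13b, the collagenase of hypertrophic cartilage, held few UMIs of the members. No member had a UMI in 40 mutant cells, which by a bound of 3 counts allows a share of cells with a UMI of up to 7.50%. In the WT library 3 of 79 cells (3.797%, interval 0.790 to 10.7%) had a UMI of a group 2 gene. The summed WT level of members was 7.29 CPM (1.99 to 18.7), against 42.2 CPM (27.0 to 62.8) in WT cells with col10a1a but no mmp13b. The mutant levels were 0 CPM, with an upper bound of 14.0, and 57.4 CPM (34.6 to 89.7). Median depths were close, at 5003 mutant and 5867 WT UMIs in mmp13b cells against 5719.5 mutant and 5898.5 WT UMIs in the other gate. The mmp13b gate used mmp13b alone, and median chondrocyte marker levels differed, at 1914 mutant and 2660 WT CPM in mmp13b cells against 7271 mutant and 14507 WT CPM in the other gate. Member UMIs were thus fewer per UMI in mmp13b cells than in the other gate in both libraries. In matn1-high cells the members summed to 21.5 CPM in the mutant and 11.2 CPM in the WT library. The WT value lies inside the interval of WT mmp13b cells. The row named hoxa4a, described below, had 1 mutant UMI (3.80 CPM) and 5 WT UMIs (9.11 CPM) in mmp13b cells. The other posterior genes had 0 mutant UMIs and 3 WT UMIs there.

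**Figure D3:**
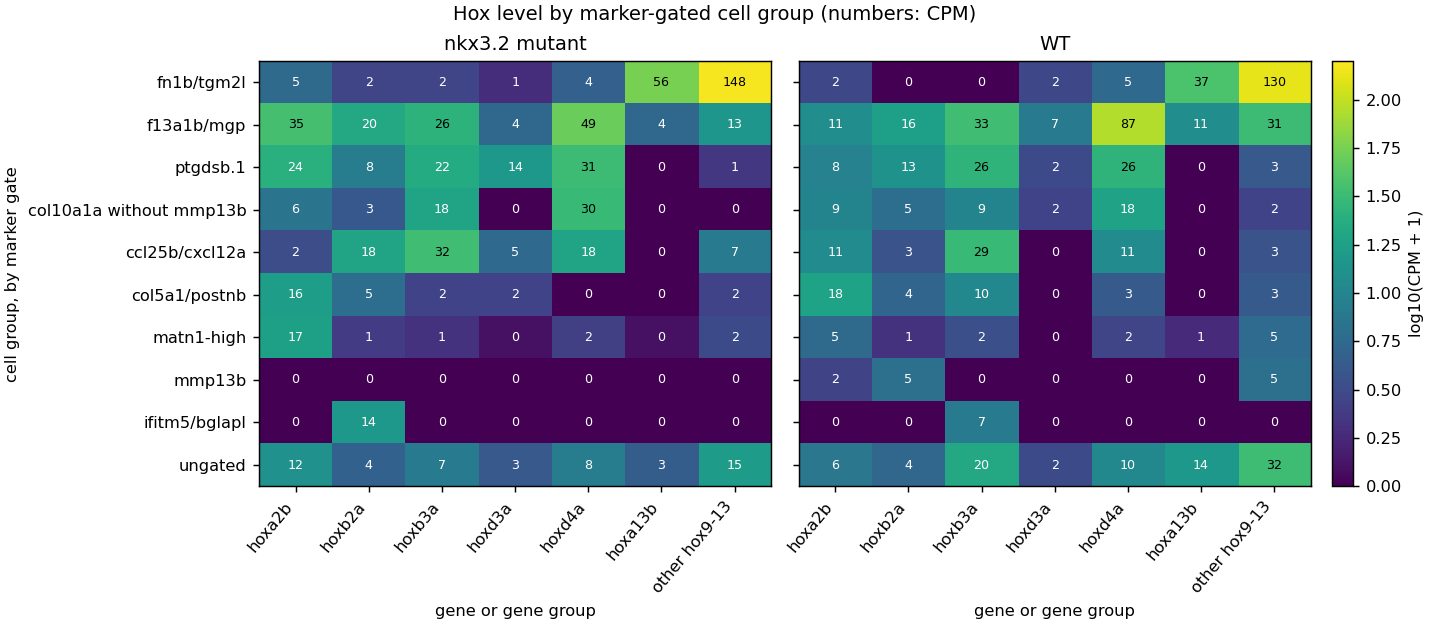
Level in CPM (numbers; colour, log10 of CPM + 1) of hox genes (x axis) in marker-gated cell groups (y axis) of the nkx3.2 mutant library (left) and the WT library (right). hoxa13b and the other posterior genes fill the fn1b/tgm2l row, at 55.5 and 148 CPM in mutant cells and 36.8 and 130 CPM in WT cells, and the hox3 and hox4 genes fill the 4 rows under it.

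Genotype was compared within gates for the 3 sets. In matn1-high cells hoxa2b was 16.9 CPM (14.2 to 19.9) in 111 mutant cells (13.6%) against 4.77 CPM (3.32 to 6.64) in 30 WT cells (3.55%), a ratio of 3.53 (2.42 to 5.28). With every cell thinned to 3000 UMIs, 33 of 797 mutant cells (4.14%) and 10 of 792 WT cells (1.26%) remained positive. The ratio was 3.17 (1.302 to 9.29) in f13a1b/mgp and 2.88 (1.33 to 7.16) in ptgdsb.1 cells. In ungated cells it was 1.88 (0.782 to 5.47), and in col5a1/postnb cells 0.877 (0.345 to 2.08). hoxa2b was higher in mutant cells beyond counting error in 3 gates, and the col5a1/postnb interval lies below that of the matn1-high cells. That difference between gates was not tested.

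The summed hox3 and hox4 genes differed less. The ratio was 0.631 (0.447 to 0.889) in f13a1b/mgp cells and 0.541 (0.340 to 0.872) in ungated cells, both lower in the mutant library. It was 1.25 (0.889 to 1.78) in ptgdsb.1, 1.39 (0.699 to 2.85) in ccl25b/cxcl12a and 0.657 (0.371 to 1.15) in matn1-high cells, all within counting error. hoxa13b was 1.51 times as high in mutant fn1b/tgm2l cells (1.03 to 2.21), while the other posterior genes there had a ratio of 1.14 (0.919 to 1.41). Outside that gate the other posterior genes were lower in the mutant library, with ratios of 0.426 (0.225 to 0.779) in matn1-high, 0.433 (0.189 to 0.961) in f13a1b/mgp and 0.473 (0.290 to 0.779) in ungated cells. The lower total of posterior transcripts in the mutant library went with a smaller fn1b/tgm2l gate, 8.02% of mutant against 13.02% of WT cells, and a difference in the tissue cannot be told apart from one in sorting or dissociation.

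**Figure D4:**
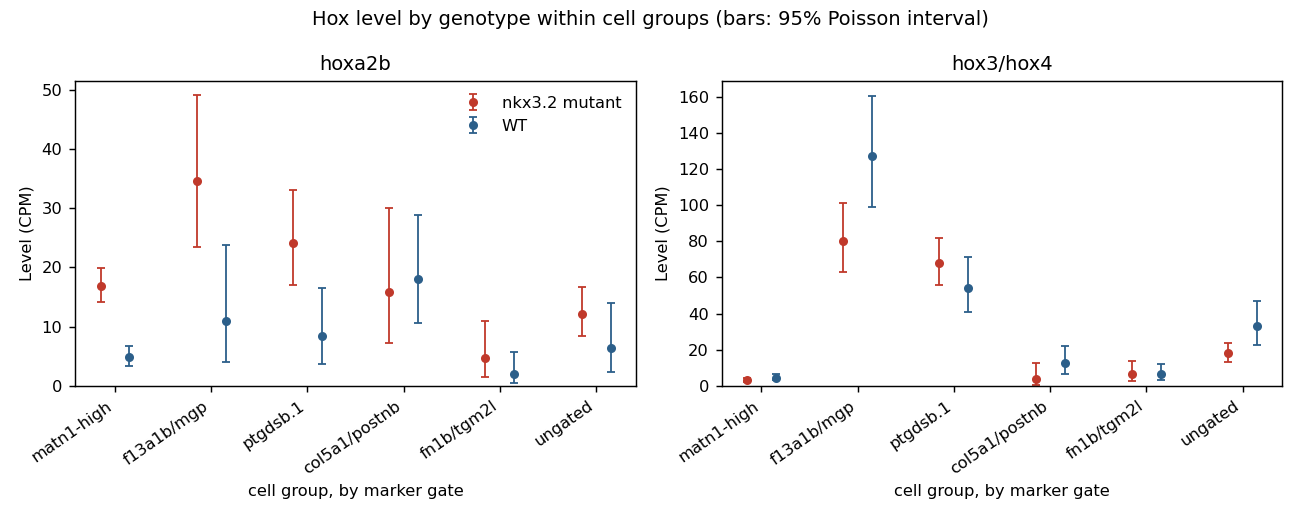
Level in CPM (y axis) of hoxa2b (left) and of the summed hox3 and hox4 genes (right) in 6 cell groups (x axis) of the nkx3.2 mutant library (red) and the WT library (blue), with 95% Poisson intervals. Mutant hoxa2b points lie above WT points by 3.53-fold in matn1-high cells, whereas for hox3 and hox4 the mutant point lies lower in f13a1b/mgp cells, at 80.3 CPM against 127 CPM.

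The chondrocyte-gated cells were then compared by the hox UMIs they held, each library on its own, calling a gene only when it was past 1.5-fold in the same direction in both libraries. Cells of 1 library are not replicates, so the calls describe these cells and no test was made. Cells with any member (310 mutant and 230 WT) against those with none (1176 and 1386) gave 274 of 5927 genes higher (4.62%) and 112 lower (1.89%). The genes named by rule as higher were cxcl12b, si:ch211-195b15.8, emilin3a, dlx1a, anxa2a, vim, foxf2a, cyp26a1, dlx4a and icn. The pooled cells differed between libraries: 89 mutant and 112 WT cells held a hox3 or hox4 UMI, and 177 and 66 held group 2 genes alone. Of the cxcl12b UMIs in cells with any member, those with a hox3 or hox4 UMI held 77 of 86 mutant and 98 of 114 WT UMIs. For foxf2a they held 31 of 32 and 48 of 50 such UMIs, so these calls are not shown for every hox set. The more numerous cells without a member UMI held a further 49 mutant and 62 WT UMIs of cxcl12b, and 30 and 57 of foxf2a. Genes named as lower included spp1, CR855311.1, mmp13b, ihha, mmp9, rbp5, tgfb2l, mmp14b and entpd5a. mmp13b and mmp9 encode matrix metalloproteinases and spp1 encodes osteopontin. The hypertrophic marker col10a1a was not among them, and over all cells its level differed by hox set. It had 473 CPM in hox3 or hox4 cells against 357 CPM in mutant cells without a member UMI and 1323 CPM against 958 CPM in WT cells. In hoxa13b cells col10a1a was lower, at 15.3 mutant and 16.2 WT CPM, and in mutant hoxa2b cells it was 77.3 CPM. Its WT level in hoxa2b cells is not given here.

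Cells with a hox3 or hox4 UMI (89 mutant and 112 WT) against cells with no member UMI gave 747 of 5545 genes higher (13.5%) and 255 lower (4.6%). This contrast was not made within marker gates. Before the chondrocyte gate, 13 of 180 mutant and 21 of 153 WT hox3 or hox4 cells were matn1-high. Of cells without a member UMI, 680 of 1555 mutant and 787 of 1750 WT cells were. Median depths were 5593 mutant and 5098.5 WT UMIs against 8188 and 6474.5. The part of gate and depth in the differences was not tested. cxcl12b, a chemokine, was 124 CPM in hox3 or hox4 cells against 4.65 CPM in mutant cells, a ratio of 26.7 (18.4 to 39.0). In WT cells it was 148 CPM against 6.09 CPM, a ratio of 24.3 (17.5 to 33.98). The rule also named ano1 (a chloride channel), krt15 (a keratin), emilin3a (a matrix glycoprotein), cyp2ad2 and anxa2a, with ratios from 10.9 to 15.3 in mutant and from 8.59 to 10.3 in WT cells. Arch patterning factors formed the rest of the list of 10: dlx1a, dlx4a, foxf2a and barx1.

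Of 29 measured genes of the dorsoventral arch patterning list, 12 were higher and 4 lower. The 12 included 7 of the 8 dlx genes of the list, and dlx genes set ventral and intermediate identity in the arches. dlx5a was 152 CPM in hox3 or hox4 cells against 14.6 CPM in mutant cells (ratio 10.4, 7.94 to 13.5) and 210 CPM against 27.6 CPM in WT cells (7.61, 6.16 to 9.36). dlx2a was 54.9 CPM against 4.27 CPM in mutant cells (12.8, 7.98 to 20.5) and 72.5 CPM against 8.55 CPM in WT cells (8.49, 5.84 to 12.2). barx1, a homeobox gene of arch mesenchyme, was 32.3 CPM against 2.37 CPM in mutant cells (13.6, 7.16 to 25.5) and 42.3 CPM against 4.13 CPM in WT cells (10.3, 6.12 to 16.9). The genes higher also included hand2, gsc and emx2, and those lower were msx1b, pou3f3a, eya1 and nkx3.2. The list's median log2 ratio was 0.00 in mutant and 0.24 in WT cells, against 0.06 and 0.23 over all genes. List members needed fewer UMIs than the genes of that background, so these medians are not on equal terms. The 7 called dlx genes of the list were all higher.

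nkx3.2, the gene mutated in the series, was 11.3 CPM in hox3 or hox4 cells against 47.2 CPM in mutant cells (ratio 0.239, 0.0957 to 0.497) and 15.1 CPM against 43.4 CPM in WT cells (0.348, 0.166 to 0.646). Retinoic acid genes, whose signal sets hox expression along the axis, had 5 of 16 measured members higher and 0 lower. cyp26a1, which degrades retinoic acid, was 25.8 CPM against 1.99 CPM in mutant cells (ratio 12.9, 6.32 to 26.0) and 45.3 CPM against 5.403 CPM in WT cells (8.39, 5.19 to 13.3). cyp26b1, rargb, crabp2b and dhrs3b were the other 4. Of the remaining lists, TALE cofactors had 3 of 10 measured genes higher (meis1a, meis1b and pknox1.1) and 1 lower (pbx3b), and frontonasal and palate genes had 3 of 7 higher (pax9, foxf2a and foxd1) and 0 lower. Polycomb and trithorax genes had 2 of 19 higher (suz12b and bmi1b) and 0 lower, a share under the 13.5% of all genes. List members needed fewer UMIs than the genes of that background, so nothing is read from the lower share. Posterior arch and fin genes had 1 of 14 higher (hand2) and 1 lower (mafba). foxf2a, a forkhead factor, was 50.03 CPM against 2.85 CPM in mutant cells (17.6, 10.3 to 30.0) and 72.5 CPM against 5.60 CPM in WT cells (12.95, 8.63 to 19.4).

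The cartilage matrix list went the other way, with 11 of 21 measured members lower and 3 higher (hapln1a, ucmaa and prelp). As given above, matn1-high cells were a small part of the hox3 or hox4 cells, and the part of that in these ratios was not tested. col2a1a had ratios of 0.363 in mutant and 0.402 in WT cells, and matn1 0.408 and 0.348. The genes named as lower included entpd5a, cgref1, prrx1b, mmp13b, angptl1b, si:ch211-251b21.1, cthrc1a, spp1 and zgc:153704. entpd5a, needed for bone mineralization, had 0 UMIs in hox3 or hox4 mutant cells against 36.5 CPM in mutant cells without a member UMI, and 3.02 CPM against 68.1 CPM in WT cells.

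Set against cells with group 2 genes alone (177 mutant and 66 WT), the hox3 or hox4 cells had 203 of 1734 genes higher (11.7%) and 102 lower (5.88%). The 5 named as higher were stc2a, aqp3a, CR855337.1, hapln1a and crip2, and the 5 named as lower were zgc:153704, angptl1b, prrx1b, trabd2b and cgref1. stc2a, a stanniocalcin, was 216 CPM against 13.9 CPM in mutant cells (15.6, 10.3 to 24.3) and 402 CPM against 13.9 CPM in WT cells (28.8, 14.4 to 67.4). dlx1a, dlx2a, dlx3b, dlx4a and dlx5a were all higher in this contrast as well. foxf2a had 31 UMIs in hox3 or hox4 cells against 1 UMI in group 2 cells of the mutant library, and 48 UMIs against 2 UMIs in the WT library. Of 19 measured cartilage matrix genes, 12 were lower and 3 higher in hox3 or hox4 cells. Before the chondrocyte gate, 119 of 215 mutant and 35 of 93 WT group 2 cells were matn1-high. Among hox3 or hox4 cells 13 of 180 mutant and 21 of 153 WT cells were. The group 2 cells were also deeper, at medians of 10807 mutant and 7468.5 WT UMIs against 5593 and 5098.5 in hox3 or hox4 cells. The part of gate and depth in these differences was not tested.

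Cells with hoxa13b and no other member (43 mutant and 50 WT) against cells with no member UMI gave 765 of 5424 genes higher (14.1%) and 270 lower (4.98%). This contrast and the hox3 and hox4 contrast share the cells without a member UMI. It was not made within marker gates. Before the chondrocyte gate, 33 of 45 mutant and 41 of 53 WT hoxa13b cells lay in the fn1b/tgm2l gate. Of cells without a member UMI, 118 of 1555 mutant and 214 of 1750 WT cells did. Median depths were 7111 mutant and 5208 WT UMIs against 8188 and 6474.5. The part of gate and depth in the differences given for hoxa13b cells was not tested. The genes named as higher were fsta, palld, igf2a, cyp1b1, pdlim5a, enah, hand2, clic2, crabp2b and tbx15. fsta, which encodes follistatin, was 186 CPM in hoxa13b cells against 9.21 CPM in mutant cells (20.2, 14.4 to 28.3) and 238 CPM against 12.97 CPM in WT cells (18.4, 13.5 to 24.7). palld, pdlim5a and enah encode actin-associated proteins and had ratios from 11.5 to 25.5 in mutant and from 8.81 to 14.1 in WT cells.

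Of 12 measured genes of the posterior arch and fin list, 5 were higher (tbx5a, tbx15, hand2, foxc1a and tshz1) and 1 was lower (mafba). tbx5a, which starts the pectoral fin bud, was 54.6 CPM against 1.61 CPM in mutant cells (33.8, 16.2 to 70.5) and 54.4 CPM against 3.64 CPM in WT cells (14.97, 7.77 to 27.6). tbx15 was 73.9 CPM against 8.55 CPM in mutant cells (8.65, 5.22 to 13.8) and 74.8 CPM against 10.7 CPM in WT cells (6.99, 4.21 to 11.1). hand2, which acts in the fin bud and the ventral arches, was 41.8 CPM against 4.75 CPM in mutant cells (8.80, 4.39 to 16.4) and 74.8 CPM against 7.66 CPM in WT cells (9.76, 5.79 to 15.8). The T-box genes of the fin were thus high in hoxa13b cells of both libraries, of which 33 of 45 mutant and 41 of 53 WT cells lay in the fn1b/tgm2l gate before the chondrocyte gate was applied.

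Retinoic acid genes had 2 of 16 measured members higher (cyp26b1 and crabp2b) and 0 lower, and polycomb and trithorax genes 2 of 20 higher (eed and phc2a) and 0 lower. Both shares lie under the 14.1% of all genes in this contrast. List members needed fewer UMIs than the genes of that background, so the shares are not on equal terms. Neither share is read as a result about its list. TALE cofactors had 0 of 10 higher and 2 lower (pbx3b and meis1b), and dorsoventral genes 1 of 27 higher (hand2) and 5 lower (dlx5a, msx3, her6, six1a and six2a).

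Several genes that were higher in hox3 or hox4 cells had no UMI in hoxa13b cells, whereas the list genes hand2, cyp26b1 and crabp2b were higher in both. dlx1a, dlx4a, barx1, foxf2a and cyp26a1 had 0 UMIs in hoxa13b cells of both libraries, against at most 5.60 CPM in the cells without a member UMI, so the ratio intervals reach above 1. six2a, an arch factor, was 6.43 CPM in hoxa13b cells against 82.3 CPM in mutant cells (0.0781, 0.00944 to 0.283) and 3.40 CPM against 47.0 CPM in WT cells (0.0724, 0.00183 to 0.405). The 10 genes named as lower were prss35, zgc:153704, ucmaa, col10a1a, otos, her6, ifitm1, twist1a, fam46bb and col11a1b. Of 21 cartilage matrix genes 12 were lower and 1, acana (aggrecan), was higher, at 312 CPM against 159 CPM in mutant cells and 265 CPM against 157 CPM in WT cells. nkx3.2 was 54.6 CPM against 47.2 CPM in mutant cells (1.16, 0.669 to 1.87) and 74.8 CPM against 43.4 CPM in WT cells (1.72, 1.07 to 2.64).

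hoxa2b was compared within matn1-high cells, where 108 mutant and 30 WT cells held it as the only member. Within this single gate 60 of 4143 genes were higher (1.45%) and 74 lower (1.79%). The contrasts above span several gates, so their shares cannot be set against these. meis1a, a TALE homeodomain cofactor of Hox proteins, was among the 10 named as higher, at 22.0 CPM against 7.26 CPM in mutant cells (3.03, 1.83 to 4.93) and 15.2 CPM against 7.85 CPM in WT cells (1.94, 0.605 to 4.82). It was the only called gene among 10 measured TALE cofactors. The other 9 were klf2a, ptpn2a, abca1a, ascc1, cul3b, msrb1a, mrpl44, BX324164.4 and foxp1a. The genes named as lower were entpd5a, srpr, hsp70.1, mmp14b, hsp70.2, mef2aa, mcfd2, anxa5b, insig1 and hsp70.3. In WT cells the interval of the ratio included 1 for 8 of the 10 genes named as higher (all but klf2a and abca1a) and for 4 of the 10 named as lower (mmp14b, mef2aa, anxa5b and insig1), and that of anxa5b included 1 in mutant cells too.

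entpd5a had 2 UMIs in hoxa2b cells, 1.57 CPM, against 39.0 CPM in mutant matn1-high cells without a member UMI, and 0 UMIs against 46.5 CPM in WT cells. Of 21 measured dorsoventral genes 3 were lower (msx1b, msx3 and six2a) and 0 were higher. six2a was 44.8 CPM against 69.1 CPM in mutant cells (0.648, 0.483 to 0.855) and 9.14 CPM against 42.1 CPM in WT cells (0.217, 0.0445 to 0.641). col2a1a and matn1 differed little, with ratios of 0.819 and 0.903 in mutant and 1.04 and 1.01 in WT cells. The hoxa2b cells were the deeper ones, at medians of 11132.5 mutant and 10745.5 WT UMIs against 9407.5 and 7943 UMIs in cells without a member UMI, and the part of depth was not tested.

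**Figure D5:**
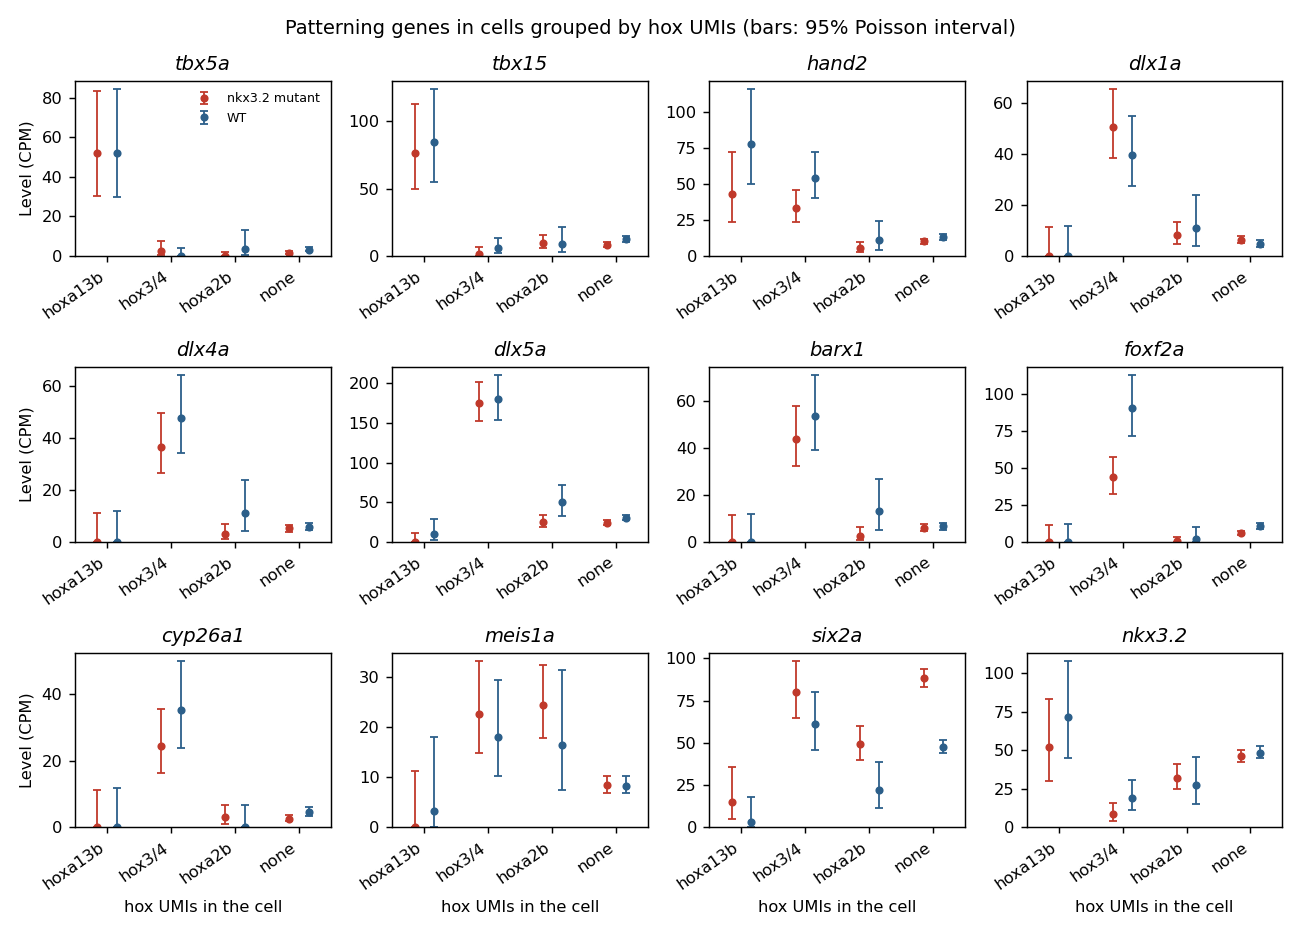
Level in CPM (y axis) of 12 patterning genes in cells with hoxa13b alone, with a hox3 or hox4 gene, with hoxa2b alone and with no member UMI (x axis), over all cells of the nkx3.2 mutant library (red, left) and the WT library (blue, right), with 95% Poisson intervals. tbx5a and tbx15 are high in hoxa13b cells of both libraries, and the dlx genes, barx1, foxf2a and cyp26a1 are high in hox3 or hox4 cells.

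Markers of other cell types were read beside these sets. In hoxa13b cells the 6 epithelial markers summed to 4881 CPM in mutant and 3906 CPM in WT cells, with 4 of the 6 detected in each library, cldni at 0 in both, cdh1 at 0 in mutant and epcam at 0 in WT cells. A single keratin, krt8, gave 4557 of the mutant and 3702 of the WT CPM. In hox3 or hox4 cells they summed to 2672 and 2771 CPM, and in hoxa2b cells to 671 and 779 CPM, against 963 and 1169 CPM in cells without a member UMI. The 4 stromal markers, which include the gate genes ccl25b and cxcl12a, summed to 2165 mutant and 1037 WT CPM in hox3 or hox4 cells. In cells without a member UMI they summed to 681 and 527 CPM. A single gene, ifitm1, gave 1445 of the mutant and 714 of the WT CPM in hox3 or hox4 cells. The 6 perichondrial markers, which include the gate genes fn1b and tgm2l, summed to 3593 mutant and 5411 WT CPM in hoxa13b cells, against 882 and 1499 CPM. tgm2l alone gave 1845 of the mutant and 2739 of the WT CPM. In chondrocyte-gated hoxa13b cells twist1a of this list was lower, at 6.43 mutant and 13.6 WT CPM against 98.1 and 101 CPM. The 10 connective tissue markers, which include col1a2 and col5a1 of this list, summed to 94.9 mutant and 51.9 WT CPM in hoxa13b cells, against 481 and 880 CPM. The 2 cartilage surface markers, which are the gate genes f13a1b and mgp, summed to 1116 mutant and 1423 WT CPM in hox3 or hox4 cells, against 344 and 252 CPM. They were high in hoxa13b cells too, at 796 mutant and 862 WT CPM. Both markers were missing in 0% of mutant and 5.66% of WT hoxa13b cells, against 51.7% and 54.9% of hox3 or hox4 cells. The fn1b/tgm2l gate was applied before the f13a1b/mgp gate, so these markers do not set the hox sets apart. The 8 S phase markers summed to 496 mutant and 405 WT CPM in hoxa13b cells, against 143 and 193 CPM. The 8 mitosis markers did not follow in both libraries, at 21.4 mutant and 32.4 WT CPM in hoxa13b cells against 59.0 and 18.9 CPM. Of 4 mural markers only rgs5a was detected in hoxa13b cells, at 101 mutant and 16.2 WT CPM, against 19.2 and 23.4 CPM. The part of these markers in the results was not tested. The 11 chondrocyte markers summed to 13806 mutant and 21496 WT CPM in hoxa13b cells, 9532 and 17963 CPM in hox3 or hox4 cells, and 32999 and 50952 CPM in hoxa2b cells, against 32289 and 48523 CPM in cells without a member UMI. Globin genes had 0 UMIs in all 3 sets of both libraries, and the leukocyte, pigment and neuron lists summed to at most 5.67 CPM in any of them.

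Other hox genes with a UMI in at least 10 cells included hoxa4a, hoxc3a, hoxb5a and hoxc6b outside the posterior set. The row named hoxa4a carries an identifier that the reference name table calls HOXA3, and in the GRCz12tu table hoxa4a overlaps hoxa3a, so which gene it counts is uncertain. It had 66 UMIs in 59 mutant cells, 4.07 CPM, against 68 UMIs in 62 WT cells, 4.90 CPM, and it met a member of the hox3 and hox4 set in 18 mutant cells against 11.5 expected and 16 WT cells against 9.26. Its gates differed from those of that set. The ptgdsb.1 cells held 33 of its mutant and 13 of its WT UMIs. The f13a1b/mgp cells held 2 mutant and 2 WT UMIs of it, but 72 of 304 mutant and 70 of 240 WT UMIs of the hox3 and hox4 set. hoxc6b, at 38 mutant UMIs and 35 WT UMIs, met hoxb3a and hoxd4a in 0 cells of either library, where depth gave 2.60 and 3.52 mutant and 2.25 and 2.53 WT cells. The other 17 detected genes had UMIs in under 10 cells each, and 11 hox symbols had no UMI.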

How the data were processed

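The deposited tables hold whole-number UMI counts per gene and cell barcode, made by the authors with Cell Ranger per the submitters' processing notes; its version and the genome build are not given in the sources used here. Cells needed at least 500 UMIs, 300 genes and at most 20% mitochondrial UMIs, which removed 0 cells. Scrublet in Scanpy 1.11.5 called 9 mutant and 3 WT doublets, which were left out, as were cells with over 5% globin UMIs. With so few calls, doublets may remain.

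CPM is the summed UMIs of a gene over all UMIs of the same cells, with an exact Poisson interval. Intervals are Clopper-Pearson for shares and exact conditional binomial for ratios, at 95% and for counting error only. For a count of 0 the upper share is 3 counts over the cells, which is lower than the Clopper-Pearson bound, while its upper CPM is the Poisson bound. In contrasts between cells a count under 3 was set to 3, and a direction that only this floor gave was set to no change. A gene needed at least 100 UMIs, a list member at least 20. Expected co-detection sums, over cells, the product of the detection probabilities that each gene's rate and the cell's depth give.

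Named genes were the members, other hox genes with a UMI in at least 10 cells, list members among the 3 most abundant, and the 10 highest and 10 lowest ratios (5 for hox3 or hox4 against group 2 cells) ranked by the smaller of the ratios of both libraries. Any further list gene given was picked with its values known, and a few genes that the rule names are not reported here. The members and the 7 gene lists were chosen with earlier results of these data known. The gate levels, the ptgdsb.1 gate, and the contrasts of hox3 or hox4, hoxa13b and hoxa2b cells with cells lacking a member UMI were chosen after seeing the data. Contrasts were tested on simulated data. Python 3.11.15, numpy 2.4.6, scipy 1.17.1, pandas 2.3.3, matplotlib 3.10.9 and edgeR 4.0.16 (TMM scaling only) were used.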

Additional observations from a re-analysis of the deposited data

Results flagged for a closer look

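The hoxa13b level differed between genotypes in opposite directions in 2 cell groups. In fn1b/tgm2l cells it was 55.5 CPM in the mutant library and 36.8 CPM in the WT library, a ratio of 1.51 (1.03 to 2.21). In ungated cells it was 3.44 CPM (10 UMIs) in the mutant library and 13.9 CPM (13 UMIs) in the WT library, a ratio of 0.248 (0.0973 to 0.612). The difference between the groups was not tested, because each genotype is 1 library.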

How the results depend on the processing

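No paired analysis was possible because each genotype is 1 library and the labels give no replicate number. Of 198 combinations of a result with an alternative, 158 stayed within the counting interval or, for counts, within 1.5 times, 40 moved further and 0 reversed. The genotype ratios of the 6 measurable members over all cells, of hoxa2b in matn1-high, of hoxa13b in fn1b/tgm2l and of hox3 and hox4 in f13a1b/mgp and ptgdsb.1 cells were all among the 158. They were rerun with a stricter cell filter, all barcodes kept, other scalings (TMM shifts log2 ratios by 0.14) and, where it applied, doubled gate thresholds or the mean of per-cell CPM. Leaving out the shared barcodes and dropping the ptgdsb.1 gate were alternatives chosen after seeing the data.

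Shares moved with depth. Any member was found in 22.1% of mutant and 14.7% of WT cells without thinning, 13.9% and 11.5% at 4000 UMIs, and 2.47% and 1.84% when at least 2 UMIs were required. Without thinning the share was 13.6% (mutant) and 3.55% (WT) for hoxa2b in matn1-high cells, 21.2% and 16.1% for hoxa13b in fn1b/tgm2l cells, 29.0% (mutant) for hox3 or hox4 in f13a1b/mgp cells, and 20.2% (WT) in ptgdsb.1 cells. At 4000 UMIs it was 6.18% for mutant hoxa2b in matn1-high cells, and for WT hox3 or hox4 37.1% in f13a1b/mgp and 19.5% in ptgdsb.1 cells. With at least 2 UMIs the shares were 0.251% and 0% for hoxa2b, 2.67% and 0.418% for hoxa13b, 4.42% and 9.09% for hox3 or hox4 in f13a1b/mgp, and 7.27% and 3.12% in ptgdsb.1 cells.

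Co-detection over expected, with at least 2 UMIs of each, was 0 for hoxa13b and for hoxa2b with hox3 or hox4 in both libraries, 21.6 in mutant and 0 in WT cells for hoxb2a with hox3 or hox4, and 253 and 151 for hoxa13b with the other posterior genes. With at least 1 UMI of each, the last ratio was 1.09 in mutant and 1.02 in WT cells within gates, against 3.46 and 2.45 over all cells. Relative to the positive cells, clumped UMIs make the expected number too high at 1 UMI and too low at 2 UMIs. Ratios near 1 therefore do not show that the genes were unlinked. In hox-bearing chondrocyte-gated cells 496 genes were higher with at least 2 member UMIs, and 109 higher and 46 lower with at least 300 UMIs per gene (fewer genes tested), against 274 and 112. In cells of at least 5000 UMIs list medians (log2, mean of the libraries) were 0.37 for dorsoventral, -0.27 for frontonasal, 0.23 for polycomb and 0.54 for posterior arch and fin genes, against 0.17, -0.16, 0.15 and 0.13. Where no cause is given it was not tested. Depth limits every share here, and the upper limits given for a count of 0 bound cells with a UMI, not cells expressing the gene.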
